A study of Mus musculus with 12 samples.

Results

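The genes described here encode collagens, laminins, other structural proteins of the extracellular matrix, and the enzymes that modify and cross-link collagen. Members were chosen by gene symbol. A spot counted when its single symbol began with Col and a digit, Lama, Lamb or Lamc and a digit, Thbs, Fbln, Fbn, Mfap, Lox, Plod, P4ha, Nid or Matn, or was Fn1, Dcn, Bgn, Lum, Fmod, Postn, Tnc, Vcan, Eln or Hspg2. Col1a2 was left out. This gave 52 spots for 52 genes, of 5030 spots and 4605 named genes in all. Fmod, Postn, Vcan and Hspg2 had no spot that counted. The rule itself uses symbols and no measured value.

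RNA was measured on 12 one-colour spotted arrays, 3 in each of 4 groups of 2 mouse bone cell lines. The osteoblast line 2T3 came from a mouse in which a BMP-2 promoter drives SV-40 T antigen, and its groups are called C0 and low. The osteocyte line MLO-Y4 came from a mouse in which T antigen is driven by the osteocalcin promoter, and its groups are called low and high. Sparse osteoblasts are contrasted with confluent ones in the labels, and osteocytes without gap junctions with osteocytes that have them. Only because the other group of each line is called low, C0 is taken here for confluent 2T3 cells and high for MLO-Y4 cells with gap junctions. Both lines carry the T antigen oncogene, and each cell type is represented by 1 line, so cell type, line and source mouse cannot be told apart. Nothing in the labels says that arrays of a group came from separate cultures, so p-values reflect array-to-array spread alone, and that spread may be technical.

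Osteoblasts secrete the collagen-rich matrix of bone, and osteocytes are former osteoblasts that live within it. Fibril-forming collagens give the matrix its tensile strength, with minor collagens, small leucine-rich proteoglycans and fibril-associated collagens setting fibril width and spacing. Lysyl and prolyl hydroxylases modify collagen chains inside the cell, and lysyl oxidases cross-link them outside. Fibrillins, fibulins and microfibril-associated proteins build elastic fibres, laminins and nidogens build basement membranes, and thrombospondins, tenascin and fibronectin bind cells to the matrix or modulate that contact.

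Values are spot intensities normalised so that all arrays share 1 distribution, with a floor at 6.08 units, and are called normalised intensity. Values at the floor have no order. The arrays differed in brightness, with median deposited intensities from 4 to 55, and between 37.9% and 74.8% of spots lay above an array's detection limit (the absolute size of that array's lowest reading). The dimmest was 2T3 low replicate 3, with a mean deposited intensity of 42.2 where the brightest array had 334. Its normalised readings of dim genes stand for very small deposited values, such as 4 for Dcn at 25.1. The arrays numbered 1 of MLO-Y4 low and MLO-Y4 high had the lowest shares (38.1% and 37.9%). Each MLO-Y4 low array and the MLO-Y4 high array of the same number were each other's closest. Spearman correlations across spots were 0.79, 0.90 and 0.86 for the numbers 1, 2 and 3. Of the 52 members, 20 exceeded the limit on all 12 arrays and 32 on some arrays only. All 52 were tested, with no filter on low values. The osteocyte marker Pdpn was detected on every array and was higher in MLO-Y4 (log2 difference 2.55, SE 0.56, adjusted p = 0.0174), while the osteocyte gene Phex was detected on none. Of the measured osteoblast markers Alpl was detected on 12 arrays, Bglap on 10, Ibsp on 5 and Omd, a small leucine-rich proteoglycan gene, on 4. None of these 4 was called between the lines over both densities, with log2 differences (MLO-Y4 minus 2T3) of 2.08 for Alpl, -2.02 for Bglap, -0.47 for Ibsp and -1.13 for Omd.

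The first question was which matrix genes set the osteocyte line apart from the osteoblast line. Over both densities 6 members were higher in MLO-Y4 and 3 were lower. Higher were the thrombospondin genes Thbs1 and Thbs2, the laminin chain gene Lama5, the fibulin gene Fbln1 and the collagen genes Col10a1 and Col5a3. Lower were the microfibril gene Mfap5, the nidogen gene Nid2 and the fibril-associated collagen gene Col12a1. The differences ran from a log2 value of 5.01 (Lama5) to -4.23 (Mfap5), and the other 43 members did not pass the threshold, an adjusted p of 0.05 from limma. The 9 are 17.3% of the members, where 9.3% of all 5030 spots were called (468 spots; 5.83% higher and 3.48% lower). Unadjusted p was under 0.05 for 14 members and for 21.1% of all spots, and the 6 arrays of one line lay wholly to one side of the other for 7 members and for 5.84% of spots. Among spots above the limit on all arrays the shares were 20% of 20 members and 14.4% of 1253 spots. The median log2 difference was -0.15 over the members and -0.032 over all spots.

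**Figure D1:**
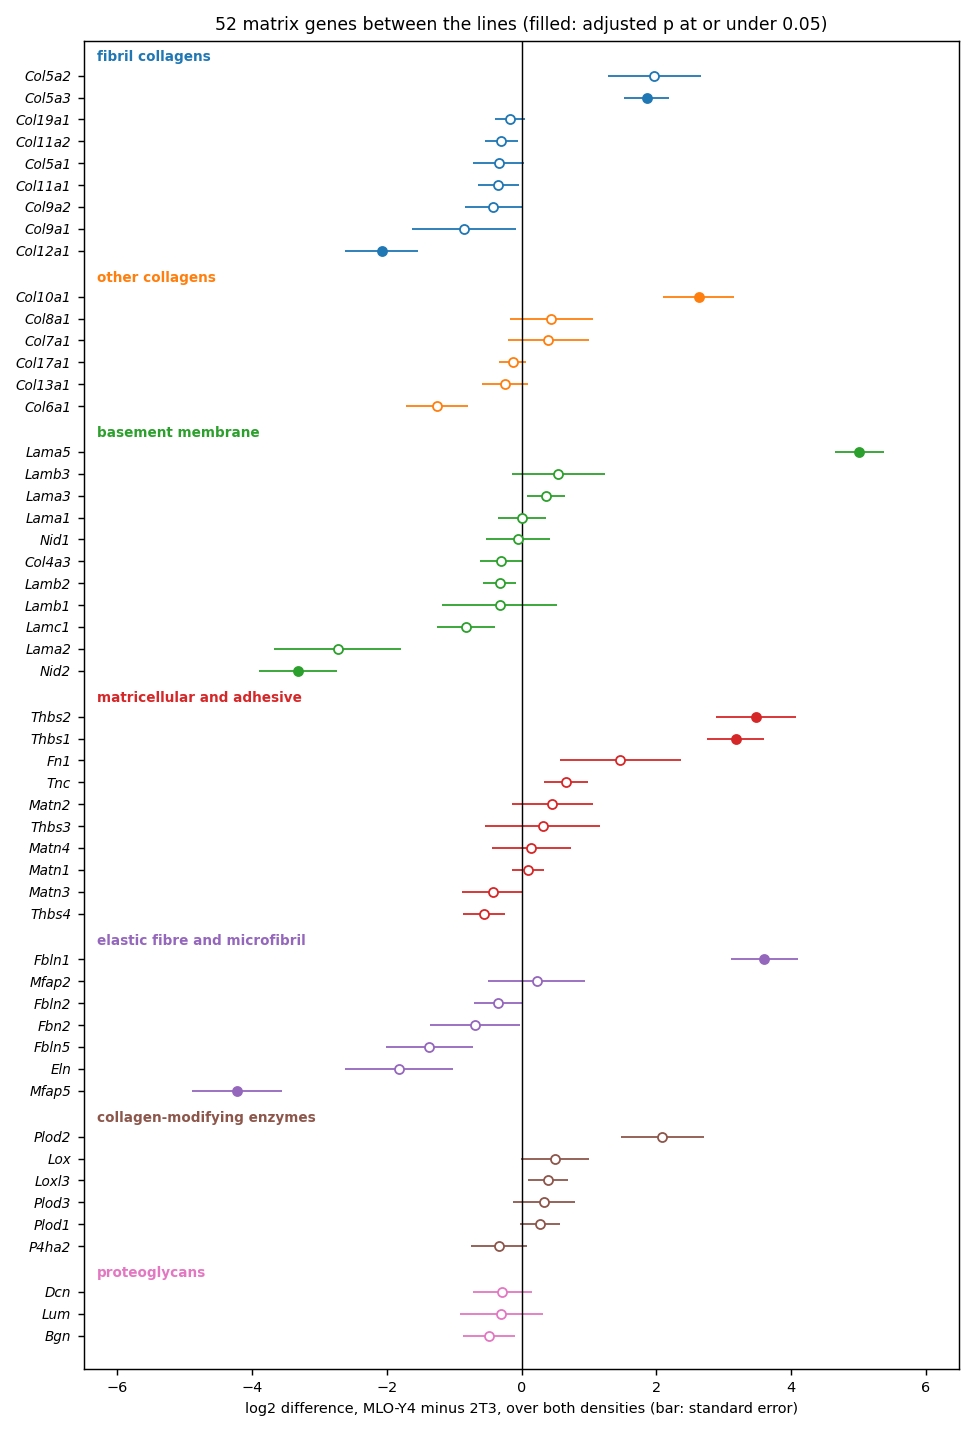
The log2 difference between the lines over both densities (horizontal axis, MLO-Y4 minus 2T3) is shown for each of the 52 matrix genes (vertical axis), grouped by role; points are fitted differences, bars are standard errors, and filled points passed an adjusted p of 0.05. Lama5, Fbln1, Thbs2, Thbs1, Col10a1 and Col5a3 are filled on the right and Col12a1, Nid2 and Mfap5 on the left, with most other members near 0.

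The balance of directions over all spots rested on the scaling. Of all spots called between the lines, 62.6% were higher in MLO-Y4 with quantile normalization, 81.5% when arrays were scaled to equal medians and 43.8% when they were scaled on spots above the limit everywhere. The median of those well-measured spots was 0.04, 0.79 and -0.07 in the same order, and the number of members with a difference above 0 was 24, 31 and 19 of 52. The 9 member calls were less affected. Lama5, Fbln1, Thbs1, Thbs2, Col10a1, Col5a3, Mfap5 and Nid2 were called in the same direction under all 3 scalings, as were 325 spots in all. Col12a1 lost its call with equal medians (log2 difference -1.25, adjusted p = 0.339).

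**Figure D2:**
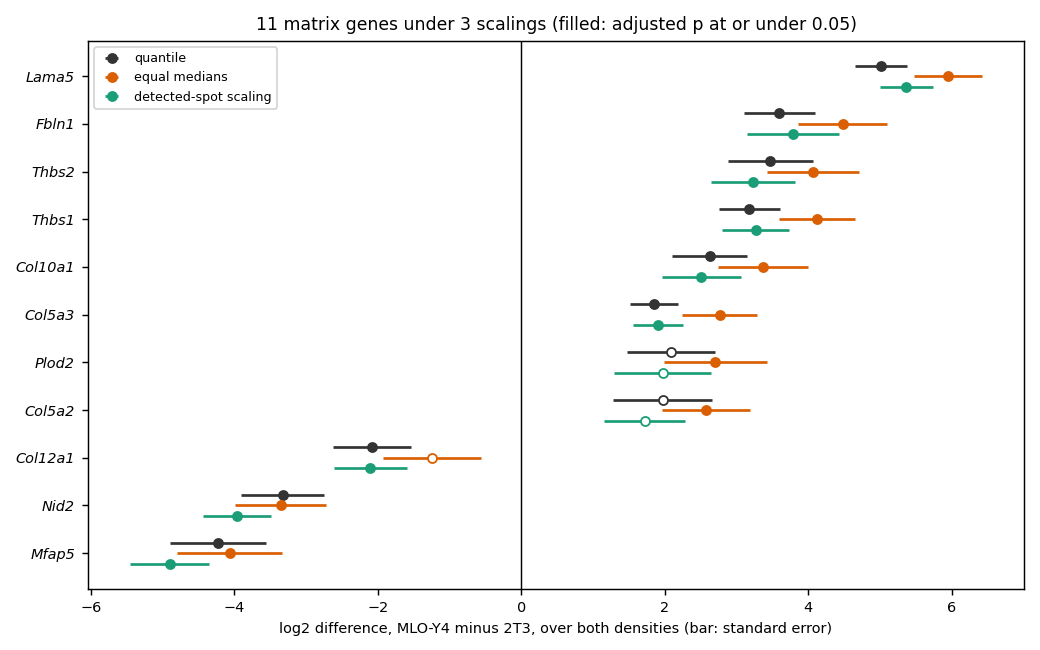
The log2 difference between the lines over both densities (horizontal axis, MLO-Y4 minus 2T3) is shown for 11 matrix genes (vertical axis) under quantile normalization, equal array medians and scaling on spots detected everywhere; bars are standard errors and filled points passed an adjusted p of 0.05. Equal medians move the points of Lama5, Thbs1 and Col5a3 to the right by about the same amount, and only Col12a1, Plod2 and Col5a2 change between filled and open.

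Among the matricellular and adhesive proteins, 2 of 10 members were higher in MLO-Y4 and 0 lower. Thbs1 encodes thrombospondin 1, a secreted trimeric glycoprotein that can activate latent TGF-beta. Its normalised intensity was 69.8, 216 and 185 on the 2T3 C0 arrays numbered 1, 2 and 3, and 215, 125 and 78.5 on 2T3 low. On MLO-Y4 low it was 1989.8, 1509.8 and 791, and on MLO-Y4 high 1664, 1279.6 and 644. Every MLO-Y4 array lay above every 2T3 array, and the densities of a line lay close together. The difference was 9.06-fold (log2 3.18, SE 0.42, adjusted p = 0.0011).

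Thbs2 encodes thrombospondin 2, a close relative of thrombospondin 1 that acts in collagen fibril assembly. It read 58.8, 16.2 and 6.08 on 2T3 C0 and 6.08, 29.3 and 8.25 on 2T3 low, against 207, 229.7 and 108 on MLO-Y4 low and 112, 247 and 113 on MLO-Y4 high. The lines did not overlap. Readings exceeded the limit on 3 of 6 2T3 arrays, so the 11.1-fold difference (log2 3.47, SE 0.59, adjusted p = 0.0048) rests partly on background. The remaining thrombospondins did not pass. Thbs3 stood at 0.31 (adjusted p = 0.888) and Thbs4, above the limit on 2 arrays of 2T3 C0 and on no other array, at -0.56 (adjusted p = 0.374).

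Fn1 encodes fibronectin, the adhesive protein on which collagen fibrils are first laid down. Its normalised intensity was 1989.8, 1074 and 217 on 2T3 C0, 608, 1266 and 626 on 2T3 low, 3553, 4955 and 729.9 on MLO-Y4 low, and 6243, 4877 and 254 on MLO-Y4 high. The array numbered 3 was far below the others in 2T3 C0 and in both MLO-Y4 groups, and the lines overlapped. The mean difference of 2.76-fold (log2 1.47, SE 0.90, adjusted p = 0.412) did not exceed this spread. Tnc, which encodes the anti-adhesive glycoprotein tenascin C, differed by 0.66 (SE 0.33, adjusted p = 0.303). The 4 matrilin genes lay between -0.43 (Matn3) and 0.46 (Matn2).

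**Figure D3:**
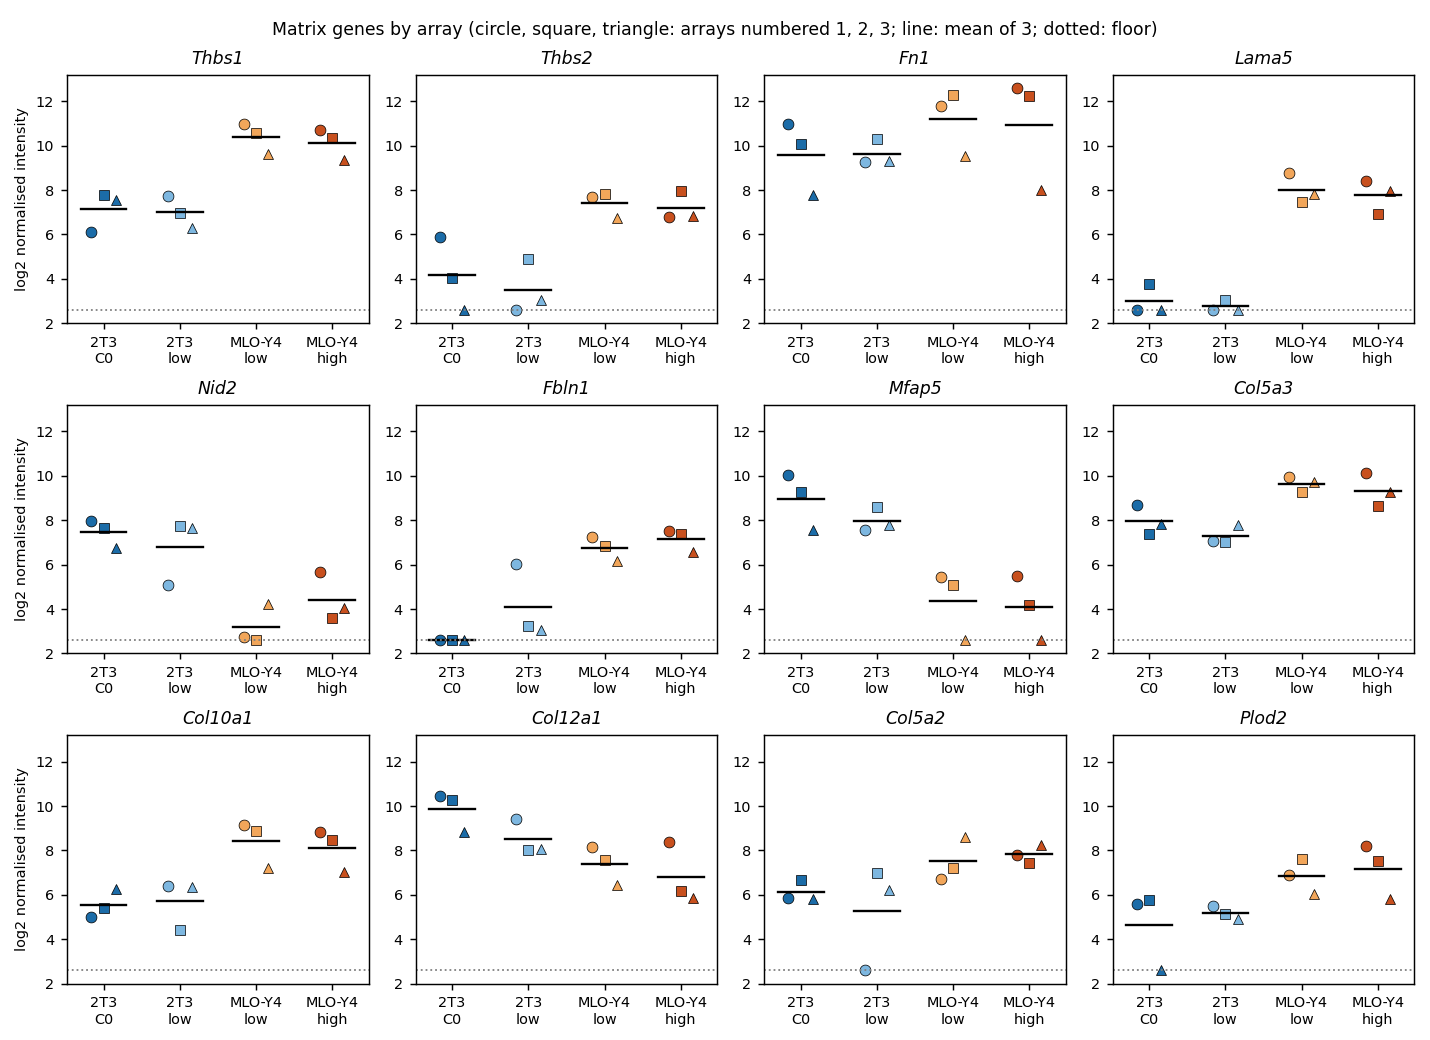
Normalised intensity on a log2 scale (vertical axis) is shown for 12 matrix genes on each of the 12 arrays (horizontal axis, 3 arrays in each of the 4 groups; circle, square and triangle are the arrays numbered 1, 2 and 3), with the group mean as a line and the floor dotted. All 6 MLO-Y4 arrays lie above all 6 2T3 arrays for Thbs1, Thbs2, Lama5, Fbln1, Col10a1 and Plod2 and below them for Mfap5, while the triangles of Fn1 are low in 3 of 4 groups.

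Among the basement membrane genes 1 of 11 was higher and 1 lower in MLO-Y4. Lama5 encodes the laminin alpha 5 chain, a subunit of the most widely expressed adult laminins. Its normalised intensity was at the floor of 6.08 on 4 of the 6 2T3 arrays, and read 13.8 on C0 replicate 2 and 8.33 on low replicate 2. It reached 437, 177 and 226 on MLO-Y4 low and 336, 122 and 251 on MLO-Y4 high. The gap between the lines was wider than the spread within either of them (log2 5.01, SE 0.36, adjusted p = 1.82e-05). Since a single 2T3 array was above its limit, the 32.3-fold size depends on the floor.

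Nid2 encodes nidogen 2, a linker between laminin and collagen IV networks. Its intensities were 247, 203 and 109 on 2T3 C0 and 33.6, 211 and 202 on 2T3 low, and 6.67, 6.08 and 19 on MLO-Y4 low and 50.2, 12.2 and 16.3 on MLO-Y4 high. The MLO-Y4 arrays lay lower except that MLO-Y4 high replicate 1 exceeded 2T3 low replicate 1. Nid2 fell by 3.33 (log2; SE 0.58, adjusted p = 0.0052), and 3 of 6 MLO-Y4 arrays were above the limit. Its relative Nid1 was detected on every array, with a difference of -0.06 (SE 0.47, adjusted p = 0.970).

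Lama2 encodes the alpha 2 chain of the muscle and nerve laminin merosin. It read 284, 421 and 468 on 2T3 C0, 837, 380.2 and 398 on 2T3 low, 9.33, 103 and 169 on MLO-Y4 low and 9.58, 345 and 156 on MLO-Y4 high. Both MLO-Y4 arrays numbered 1 were far below the others, and the difference of -2.73 (SE 0.94, adjusted p = 0.115) did not pass. It passed when an offset of 50 took the place of the floor (-1.75, adjusted p = 0.0385). The common chain genes Lamb1 (-0.33), Lamb2 (-0.32) and Lamc1 (-0.82) did not pass either. Lama1 stood at 0.0027, Lamb3 at 0.55 and Lama3, above the limit on 1 of 12 arrays, at 0.36. The collagen IV chain gene Col4a3 stood at -0.30 (adjusted p = 0.669). Thus among the 8 laminin chain genes measured, Lama5 alone passed the threshold in the main fit.

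In the elastic fibre and microfibril group 1 of 7 members was higher and 1 lower. Fbln1 encodes fibulin 1, a calcium-binding glycoprotein of elastic fibres and basement membranes. It was at the floor of 6.08 on all 3 arrays of 2T3 C0 and read 65.4, 9.50 and 8.25 on 2T3 low, against 153, 115 and 71.6 on MLO-Y4 low and 183, 168 and 95.5 on MLO-Y4 high. The lines did not overlap, although 2T3 low replicate 1 came close to the lowest MLO-Y4 array. The difference was 12.1-fold (log2 3.60, SE 0.50, adjusted p = 0.0015), and 5 of the 6 2T3 arrays were below their limit.

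Mfap5 encodes microfibril-associated protein 5, also called MAGP-2, which binds fibrillin microfibrils. Its intensities were 1054, 608 and 189 on 2T3 C0, 186, 384 and 224 on 2T3 low, 43.0, 33.8 and 6.08 on MLO-Y4 low and 45.1, 18.4 and 6.08 on MLO-Y4 high. All MLO-Y4 arrays were below all 2T3 arrays, and 2 of 6 were above the limit. Mfap5 fell by 4.23 (log2; SE 0.67, adjusted p = 0.0032). Its relative Mfap2 stood at 0.22 (adjusted p = 0.907).

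Other elastic fibre genes did not pass. The tropoelastin gene Eln stood at -1.82 (SE 0.80, adjusted p = 0.227), the elastogenic fibulin gene Fbln5 at -1.37 (SE 0.64, adjusted p = 0.262), the fibrillin gene Fbn2 at -0.69 and Fbln2 at -0.35. In MLO-Y4 the readings of Eln ran from 6.08 to 112 with no shared level, and those of Fbln5 were 24.4 and 30.8 on the arrays numbered 1 and at least 160.1 on the others.

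Of the 9 fibril-forming and fibril-associated collagen genes 1 was higher and 1 lower in MLO-Y4. None of the 9 encodes a chain of collagen I, II or III, so those collagens are not covered here. Col5a3 encodes the alpha 3 chain of collagen V, a minor fibrillar collagen that regulates fibril assembly. It read 418, 167 and 229 on 2T3 C0, 133, 131 and 224 on 2T3 low, 980.0, 625 and 844 on MLO-Y4 low, and 1109.9, 399.9 and 609.8 on MLO-Y4 high. The lines overlapped at a single point, since 2T3 C0 replicate 1 exceeded MLO-Y4 high replicate 2. The difference was 3.62-fold (log2 1.85, SE 0.34, adjusted p = 0.0066), on values above the limit on all arrays.

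The genes for the other collagen V chains moved less clearly. Col5a2, which encodes the alpha 2 chain, read 58.8, 103 and 55.8 on 2T3 C0, 6.08, 125 and 75.2 on 2T3 low, 104, 149 and 388 on MLO-Y4 low and 225, 171 and 305 on MLO-Y4 high. The single floor value on 2T3 low widened the spread, and the difference of 1.97 (SE 0.69, adjusted p = 0.121) did not pass. It passed with equal medians (2.58, adjusted p = 0.0216) and with an offset of 50 in place of the floor (1.19, adjusted p = 0.0457). Col5a1, for the alpha 1 chain, stood at -0.34 (SE 0.38, adjusted p = 0.699).

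Col12a1 encodes collagen XII, which lies on the surface of collagen I fibrils. Its intensities were 1384, 1230.5 and 458 on 2T3 C0, 678, 260.1 and 265 on 2T3 low, 288, 188 and 86.3 on MLO-Y4 low and 330.1, 71.2 and 58.7 on MLO-Y4 high. The highest MLO-Y4 readings lay above the lowest of 2T3 low. Col12a1 fell by 2.08 (log2; SE 0.54, adjusted p = 0.0387). The call was lost in 9 of 12 fits without 1 array (adjusted p from 0.0614 to 0.0929) and kept without 2T3 C0 replicate 3, MLO-Y4 low replicate 1 or MLO-Y4 high replicate 1.

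The cartilage collagen genes Col9a1, Col9a2, Col11a1 and Col11a2 lay between -0.85 and -0.30, and Col19a1 at -0.17, with none called. Of these only Col9a1 and Col11a1 were above the limit on more than 3 arrays. Among the 6 other collagen genes, Col10a1 was the one that passed. It encodes collagen X, a network collagen known from hypertrophic cartilage. It read 32.2, 42.7 and 75.8 on 2T3 C0, 84.2, 21.2 and 80.6 on 2T3 low, 572, 466 and 148 on MLO-Y4 low and 454, 358 and 129.96 on MLO-Y4 high. The lines did not overlap, and the arrays numbered 3 were lowest in both MLO-Y4 groups. The difference was 6.18-fold (log2 2.63, SE 0.52, adjusted p = 0.0107), and 2.28 (adjusted p = 0.136) without the 4 arrays numbered 1.

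No other measured chondrocyte marker was called between the lines. Of 9 measured, 6 of them members here, 1 was higher (Col10a1) and 0 lower. Acan, for the cartilage proteoglycan aggrecan, was above the limit on 2 of 12 arrays, Chad on 2 and Comp on 0. Col9a1 was above it on 10 arrays, Col9a2 on 3, Matn1 and Matn3 on 2 each and Col11a2 on 1. In most of these genes the readings were too dim to show a difference. The markers Col2a1 and Sox9 were not measured. Summed normalised intensity of the list ran from 161 to 166 in 2T3 C0, 92.4 to 310.2 in 2T3 low, 191 to 707 in MLO-Y4 low and 152 to 540.2 in MLO-Y4 high, sums that include Col10a1.

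The remaining collagen genes of this group did not pass. Col6a1, which encodes a chain of the beaded-filament collagen VI, stood at -1.25 (SE 0.46, adjusted p = 0.140). Col7a1, Col8a1, Col13a1 and Col17a1 lay between -0.25 and 0.44, and each was below the limit on at least 6 of 12 arrays.

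Among the 6 collagen-modifying enzymes none passed the threshold. Plod2 encodes the lysyl hydroxylase of the collagen telopeptides, whose product sets the type of cross-link. It read 48.5, 54.9 and 6.08 on 2T3 C0, 45.0, 35.0 and 30.3 on 2T3 low, 118, 195 and 65.7 on MLO-Y4 low and 292, 182 and 56.8 on MLO-Y4 high. All 6 MLO-Y4 arrays were above all 6 2T3 arrays, with the lowest of MLO-Y4 high (56.8) next to the highest of 2T3 C0 (54.9). The difference was 4.25-fold (log2 2.09, SE 0.62, adjusted p = 0.0672). It passed in 5 of 20 alternative fits. Among these were equal medians (2.71, adjusted p = 0.0373), the fit without MLO-Y4 high replicate 3 (2.42, adjusted p = 0.0434) and the replicate number as a block over all groups (adjusted p = 0.0126). Of the 12 fits without 1 array only that 1 called it. Without the 4 arrays numbered 1 Plod2 stood at 2.14 (adjusted p = 0.257).

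The related hydroxylases Plod1 (0.27, adjusted p = 0.691) and Plod3 (0.33, adjusted p = 0.759) were detected on all 12 arrays and did not pass. The prolyl hydroxylase subunit gene P4ha2 stood at -0.33, the lysyl oxidase gene Lox at 0.49 and its relative Loxl3 at 0.39. None of the 3 proteoglycan genes passed. Bgn, for biglycan, stood at -0.49, Lum, for lumican, at -0.30, and Dcn, for decorin, at -0.29, with adjusted p from 0.558 to 0.849.

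RefSeq promoter sequences (GRCm38.p6) were at hand for 34 of the 52 members and for 5 of the 9 that passed. The 250 bases upstream of the annotated start are shown for the 4 of these with 1 listed start, all of which were higher in MLO-Y4. Capitals mark the core promoter motif TATAAA and the Sp1 motif GGGCGG, searched on both strands. The AP-1 motif TGANTCA and the Runx motif TGTGGT were searched too and had no match in these windows, and no match overlapped another. Lama5 lies at chr2:180225860-180226109 (minus strand), Thbs2 at chr17:14694263-14694512 (minus), Col10a1 at chr10:34389731-34389980 (plus) and Col5a3 at chr9:20815068-20815317 (minus).
Lama5: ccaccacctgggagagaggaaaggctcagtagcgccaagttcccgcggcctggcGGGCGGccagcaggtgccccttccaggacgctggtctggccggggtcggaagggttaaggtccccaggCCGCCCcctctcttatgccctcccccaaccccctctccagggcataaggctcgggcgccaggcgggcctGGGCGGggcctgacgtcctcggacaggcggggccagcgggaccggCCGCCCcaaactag
Thbs2: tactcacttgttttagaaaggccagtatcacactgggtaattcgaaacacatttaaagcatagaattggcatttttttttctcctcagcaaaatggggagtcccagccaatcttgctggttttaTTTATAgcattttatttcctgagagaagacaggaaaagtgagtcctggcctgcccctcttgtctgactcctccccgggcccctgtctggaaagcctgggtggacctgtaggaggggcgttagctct
Col10a1: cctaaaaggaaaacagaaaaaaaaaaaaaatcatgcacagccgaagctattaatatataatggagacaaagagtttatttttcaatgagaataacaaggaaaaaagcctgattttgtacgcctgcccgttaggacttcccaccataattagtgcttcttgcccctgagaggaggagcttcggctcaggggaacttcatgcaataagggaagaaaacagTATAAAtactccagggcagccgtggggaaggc
Col5a3: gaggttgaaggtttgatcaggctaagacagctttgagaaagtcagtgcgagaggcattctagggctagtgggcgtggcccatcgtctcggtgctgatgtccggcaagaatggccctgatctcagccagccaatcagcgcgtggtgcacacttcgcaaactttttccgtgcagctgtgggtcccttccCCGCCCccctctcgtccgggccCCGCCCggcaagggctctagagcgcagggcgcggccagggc
Lama5 held 4 Sp1 motifs and Col5a3 held 2, while Col10a1 held a core promoter motif 32 bases before the start and Thbs2 one 126 bases before it. The Sp1 motif was found in 32.7% of 32851 promoter windows of this length and in 23 of the 34 members. For the core promoter motif the figures were 12.4% and 7 members, for AP-1 6.75% and 1, and for Runx 14% and 4. A member counted if any of its windows matched, and a gene can have several. The shares of windows and the counts of members are therefore in unlike units and cannot be compared. These are matches of letters only.

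The lines were then compared at each density. At low density 5 members were called, 4 higher and 1 lower in MLO-Y4, where 3.94% of all spots were (2.86% higher, 1.07% lower). Unadjusted p was under 0.05 for 10 members and 15.4% of spots. Lama5 in MLO-Y4 low was higher by at least 21.8-fold, since no 2T3 low array was above its limit (adjusted p = 2.88e-04). Thbs1 was 10.4-fold higher (log2 3.38, SE 0.60, adjusted p = 0.0118) and Col5a3 5.10-fold (2.35, SE 0.48, adjusted p = 0.0214). Thbs2 was 15.2-fold higher (3.92, SE 0.84, adjusted p = 0.0291), and Nid2 fell by 3.62 (SE 0.82, adjusted p = 0.0381). For Thbs2 1 of 3 2T3 low arrays was above the limit, and for Nid2 1 of 3 MLO-Y4 low arrays. Both sizes therefore rest partly on background.

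Single arrays decided several of these calls. Without MLO-Y4 low replicate 1 Lama5 alone was called, without 2T3 low replicate 3 Lama5 and Col5a3 (2 members), and without 2T3 low replicate 2, MLO-Y4 low replicate 2 or MLO-Y4 low replicate 3 only 3 members. Thbs2 lost its call without 2T3 low replicate 1 or 3 or any 1 of the MLO-Y4 low arrays (adjusted p from 0.0548 to 0.113), and Col5a3 without 2T3 low replicate 1 or 2 or MLO-Y4 low replicate 1 or 3 (0.0670 to 0.0748). Thbs1 lost it without 2T3 low replicate 3 (0.0520) or MLO-Y4 low replicate 1 (0.0503), and Nid2 in 8 of 12 such fits, kept only without 2T3 low replicate 1, MLO-Y4 low replicate 3 or MLO-Y4 high replicate 1 or 2. Fbln1, at 2.65 (adjusted p = 0.0782) with all arrays, was called without 2T3 low replicate 1 (3.87, adjusted p = 0.0018). Mfap5 stood at -3.61 (adjusted p = 0.0746) and Col10a1 at 2.70 (adjusted p = 0.0850), with no overlap between the arrays of the lines in either. In all, 14 members, all 5 called ones among them, did not overlap between MLO-Y4 low and 2T3 low, where 18.9% of all spots did not overlap.

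In dense culture 4 members were called, 3 higher and 1 lower, where 3.36% of all spots were (2.31% higher, 1.05% lower). Unadjusted p was under 0.05 for 12 members and 14.2% of spots, and 15 members did not overlap, where 16.6% of spots did not. Lama5 exceeded its 2T3 C0 level 27.2-fold in MLO-Y4 high (log2 4.77, SE 0.51, adjusted p = 6.20e-04). That size depends on the floor, since 1 of 3 2T3 C0 arrays was above its limit. Fbln1 rose at least 15.3-fold, with no 2T3 C0 array above its limit (adjusted p = 0.0062), and Thbs1 was 7.88-fold higher (2.98, SE 0.60, adjusted p = 0.0228). Mfap5 fell by 4.85 (SE 0.95, adjusted p = 0.0210), from a geometric mean of 495 to 17.2. The latter rests partly on background, since 1 of 3 MLO-Y4 high arrays was above its limit. Without MLO-Y4 high replicate 2 only Lama5 and Fbln1 were called (2 members). Thbs1 also lost its call without 2T3 C0 replicate 1 or 3 or MLO-Y4 high replicate 1 (adjusted p from 0.0560 to 0.0849), and Mfap5 without 2T3 C0 replicate 1 or 2 or MLO-Y4 high replicate 3 (0.0714 to 0.0787). Thbs2, at 3.02 (adjusted p = 0.0968), was called without 2T3 C0 replicate 1 (3.86, adjusted p = 0.0321), and Nid2, at -3.03 (adjusted p = 0.0869), without 2T3 low replicate 1 (adjusted p = 0.0414).

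Same-numbered arrays of 2T3 C0, MLO-Y4 low and MLO-Y4 high deviated together. The dense comparison was therefore also fitted in those 3 groups alone, with the replicate number as a block. For this fit 2T3 low was left out, and the remaining arrays were normalised and floored again. The part of the block in the changed calls therefore cannot be told apart from that of the left-out group. All spots called then numbered 289 in place of 169, and members 6 in place of 4. Col12a1 (log2 difference -3.11, adjusted p = 0.0187), Plod2 (2.64, adjusted p = 0.0458) and Col5a3 (1.37, adjusted p = 0.0385) gained a call, and Thbs1 lost it (3.02, adjusted p = 0.0558). In the main fit of all 4 groups, with no block, Col12a1 was at -3.05 (adjusted p = 0.0658). Its adjusted p was 0.0250 without MLO-Y4 high replicate 1. All 3 MLO-Y4 high arrays were below all 3 2T3 C0 arrays.

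Whether density changed matrix genes within a line was the other question. No member was called in either line, nor was any other spot: 0 of 5030 spots (0%) passed in limma for 2T3 C0 against low, and 0 (0%) for MLO-Y4 high against low. Unadjusted p was under 0.05 for 266 spots (5.29%) and 5 members in 2T3 and for 116 spots (2.31%) and 0 members in MLO-Y4. The members are therefore given as values.

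Dcn had the smallest p in 2T3. Decorin is a small leucine-rich proteoglycan that decorates collagen fibrils. Its normalised intensity was 284, 253 and 59.2 on 2T3 C0 and 29.3, 12.4 and 25.1 on 2T3 low, against 56.6, 27.6 and 30.4 on MLO-Y4 low and 79.9, 68.8 and 45.6 on MLO-Y4 high. All C0 arrays were above all low arrays in 2T3. The difference was 7.76-fold (log2 2.96, SE 0.62, unadjusted p = 7.77e-04), but after adjustment over all spots p was 0.528. The reading of 25.1 on 2T3 low replicate 3 was the lowest counted as above that array's limit. That of 12.4 on replicate 2 lay beside a limit of 10.9, so the size rests partly on background. Across the alternative fits it ran from a log2 value of 1.63 to 3.76. In MLO-Y4 the difference was 0.80 (SE 0.62), and the density effects of the lines differed by -2.15 (SE 0.88, adjusted p = 1).

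Bgn, the other abundant small proteoglycan gene of bone, read 16874, 11905 and 12436 on 2T3 C0 and 8526, 2194 and 8526 on 2T3 low, without overlap (1.32, SE 0.55, adjusted p = 0.929). Col6a1 read 1968, 1087 and 389 on C0 and 397, 540.5 and 165 on low, with overlap (1.52, SE 0.65, adjusted p = 0.929). All 9 fibril-forming and fibril-associated collagen genes lay above 0 in this comparison, from 0.11 to 1.35 with a median of 0.68, among them Col12a1 (1.35), Col11a1 (1.17), Col5a2 (0.86) and Col5a1 (0.71). None passed, and the median of all spots was 0. Of these 9, Col11a2 and Col19a1 exceeded the limit on 1 of 12 arrays each and Col9a2 on 3, so their sign rests on background. Col11a1 exceeded it on 1 of 3 2T3 low arrays, so its size rests partly on background. Its difference ran from 0.36 to 1.98 across the fits. Of all 5030 spots 2408 lay above 0. Among the 1253 spots above the limit on all arrays 686 did, with a median of 0.08. Col5a2 rested on its floor reading on 2T3 low replicate 1, without which the difference was -0.50.

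Several elastic fibre genes lay in the opposite direction. Fbln2, for fibulin 2, read 159, 97.5 and 37.2 on 2T3 C0 and 233, 271 and 160.1 on 2T3 low, so that the groups did not overlap (-1.38, SE 0.50, adjusted p = 0.929). Eln stood at -1.39 (SE 1.13) and Fbn2 at -1.81 (SE 0.94), the latter resting on 2T3 low replicate 1, at 141 beside 12.4 and 8.25 on the other arrays. Fbln1 was above the limit on 0 of 3 arrays of 2T3 C0 and on 1 of 3 of 2T3 low (65.4 on replicate 1), so no size is given for it. Mfap5 (0.98), Mfap2 (0.59) and Fbln5 (0.38) lay above 0. In all 8 members did not overlap between 2T3 C0 and low, where 9.05% of all spots did not.

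**Figure D4:**
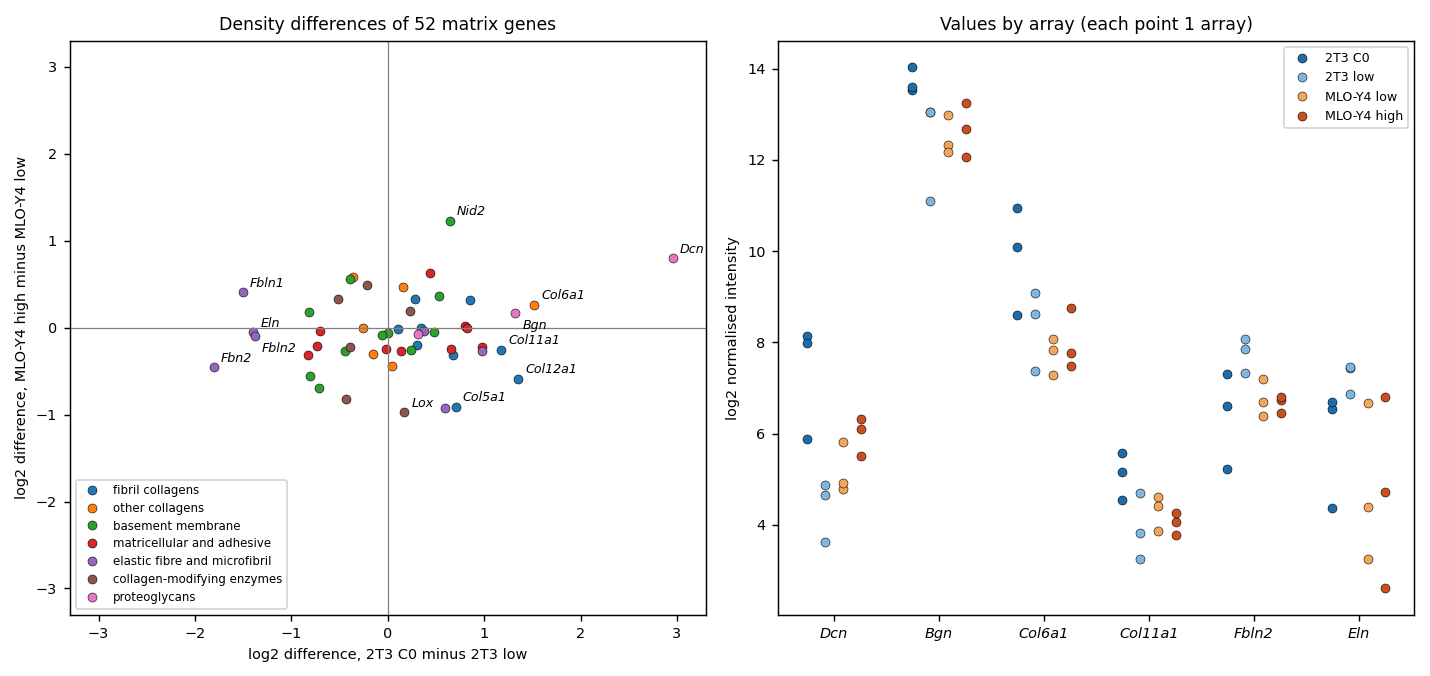
Left, the log2 density difference of each of 52 matrix genes in MLO-Y4 (vertical axis, high minus low) is set against that in 2T3 (horizontal axis, C0 minus low), coloured by role. Right, log2 normalised intensity (vertical axis) of 6 genes is shown for each array by group. Dcn reads 59.2 to 284 on 2T3 C0 and 12.4 to 29.3 on 2T3 low. For all 6 genes the means of the MLO-Y4 groups lie closer together than those of the 2T3 groups.

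In MLO-Y4 the density differences of members ran from -0.97 to 1.23. Lox, the lysyl oxidase gene, read 819, 611 and 692 on MLO-Y4 low and 568, 384 and 211 on MLO-Y4 high, the only member without overlap (-0.97, SE 0.71, adjusted p = 1), where 4.51% of all spots did not overlap. Nid2 stood at 1.23 near the limit, Col5a1 at -0.91 and P4ha2 at -0.82. Thbs1 (-0.26), Thbs2 (-0.24), Lama5 (-0.25), Fbln1 (0.41), Mfap5 (-0.27), Col5a2 (0.32) and Plod2 (0.33) differed little beside their gaps between the lines. The difference between the density effects of the lines was called for 0 of 5030 spots (0%). An unadjusted p under 0.05 was found for 145 spots (2.88%) and 2 members, Dcn and Col11a1. Both rest partly on background in 2T3 low.

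The other genes of matrix assembly were taken from a list of collagen-processing genes, further matrix proteins and matrix receptors. Of 41 measured, 6 were higher and 1 lower in MLO-Y4 over both densities, with a median of 0.26. That is 17.1% of the list, beside 9.3% of all spots, whose median was -0.032. At low density 2 were higher and 1 lower (7.32%, beside 3.94% of all spots), in dense culture 1 was higher and 1 lower (4.88%, beside 3.36%), and 0 were called for density in either line. Of 8 folding and trimming genes Tgm2 was higher, which encodes the cross-linking enzyme transglutaminase 2 (log2 2.68, SE 0.38, adjusted p = 0.0017). In dense culture it stood at 3.46 (SE 0.54, adjusted p = 0.0062).

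Of 19 further matrix proteins Ecm1 (1.85, SE 0.37, adjusted p = 0.0108) and the latent TGF-beta binding protein gene Ltbp2 (2.23, SE 0.55, adjusted p = 0.0301) were higher. Ltbp2 was below the limit on 4 of 6 2T3 arrays. Omd was called in dense culture, at least 1.71-fold lower in MLO-Y4 high, where 0 of 3 arrays exceeded the limit (adjusted p = 0.0353). The 14 receptor genes held 3 that were higher and 1 that was lower. Higher were Itga5, for the alpha chain of the fibronectin receptor (2.83, SE 0.44, adjusted p = 0.0027), the hyaluronan receptor gene Cd44 (2.43, SE 0.62, adjusted p = 0.0343) and the collagen receptor subunit gene Itga2 (1.74, SE 0.46, adjusted p = 0.0427). Itga2 was above the limit on 1 of 6 2T3 arrays and on 4 of 6 MLO-Y4 arrays, so its size depends on the floor. Dag1, which encodes the laminin receptor dystroglycan, fell by 1.24 (SE 0.26, adjusted p = 0.0130).

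Markers of other cell types were measured as well. Of 6 macrophage or osteoclast markers Csf1r was higher in MLO-Y4 (0.99, SE 0.24, adjusted p = 0.0247), on 3 of 12 arrays above the limit, and Tyrobp fell by 3.25 (SE 0.59, adjusted p = 0.0068). Of the 12 arrays Ctsk exceeded the limit on 12, Cd68 on 9, Tyrobp on 7 (all 6 of 2T3 and 1 of MLO-Y4), Acp5 on 2 and the pan-leukocyte gene Ptprc on 0. The summed normalised intensity of the 6 ran from 194 to 232 in 2T3 C0, 389 to 465 in 2T3 low, 165 to 303 in MLO-Y4 low and 168 to 502 in MLO-Y4 high. None of 4 endothelial markers was called, and Kdr exceeded the limit on 9 arrays (6 of 2T3 and 3 of MLO-Y4), Pecam1 on 6, Tek on 2 and Cdh5 on 1; their sum ran from 12 to 66.9 in 2T3 C0, 58.5 to 96.8 in 2T3 low, 15.5 to 61.9 in MLO-Y4 low and 45.0 to 195 in MLO-Y4 high. The part of these markers in the matrix differences was not tested.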

How the data were processed

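Total RNA of 12 samples was measured on one-colour spotted arrays. The deposited values are linear spot intensity, whole numbers from -23 to 53055. Values below 0 show that background had been subtracted; which software read the images, how background was taken and whether arrays were normalized is not given in the sources used here. The platform annotation lists 4638 of 5030 spots (5 carry several symbols, 4633 carry 1) and leaves 392 without a name. Symbols were updated by Entrez identifier for 4624 spots.

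Arrays were quantile-normalized in limma 3.58.1 (R 4.3.3). Scaling to equal medians was an alternative only, because background readings set the medians of the dimmer arrays. Values were floored at the 25th percentile of all normalised values (6.08) and log2 was taken. lmFit fitted 4 group means over 12 arrays, leaving 8 residual degrees of freedom. Two-sided moderated tests came from eBayes, adjusted by Benjamini-Hochberg over 5030 spots within each of 6 comparisons. Where no array of a group was above its limit, folds are lower bounds, the mean of the bright group divided by the limits of the dim one, the limit being an array's lowest normalised value above background. The number of arrays limits the precision.

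Deviations from group means of same-numbered arrays correlated across spots at 0.28 to 0.63 among 2T3 C0, MLO-Y4 low and MLO-Y4 high in every pair. With 2T3 low they ran from -0.11 to 0.16. By the rule that every pair exceed 0.1, numbers pair the first 3 groups.

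Members and lists were chosen with earlier results of these data known. Genes were named if given as markers (Thbs1, Thbs2, Col5a2, Plod2, Mfap5, Fbln1), if called in any comparison, if among the 3 smallest p in a direction, or if brightest in a role group; relatives beside them were named after their values were seen. Alternatives covered scaling, floor, filter, blocks, prior variance and left-out arrays. Figures were drawn with matplotlib 3.10.9.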

Additional observations from a re-analysis of the deposited data

How the results depend on the processing

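Over both densities the members called numbered 8 to 12 under every alternative run, beside 9, and no named member that was called changed direction. In fits without 1 array the counts ran from 8 to 10 (both densities), 1 to 5 (low density, beside 5) and 2 to 5 (dense culture, beside 4), and spots called from 354 to 462, from 115 to 221 (beside 198) and from 103 to 186 (beside 169). Without the 4 arrays numbered 1, 2 members were called in dense culture. With the replicate number as a block over all groups, members called were 10, 6 and 6 over both densities, at low density and in dense culture. An alternative chosen after seeing the data left out 2T3 low and used the block in the other groups, normalised again. It called 289 spots in dense culture. At low density, where the numbers do not pair, the block ended the call of Nid2 (adjusted p = 0.0606) and added Fbln1 (0.0398) and Mfap5 (0.0136). No replicate block, over all groups or within a line, gave a density call. With the floor at the 40th percentile 3 spots, none of them a member, were called for density in 2T3. An offset of 50 in place of the floor shrank differences of dim genes (Lama5 from 5.01 to 2.42, Fbln1 from 3.60 to 1.56). Among the 3244 refitted values of the named members, 47 lost a call and 30 gained one. Only members called in the main fit could lose one (9 over both densities, 5 at low density, 4 in dense culture). The 47 are therefore not to be read as a share of 3244. Brightness limits dim members, since 32 of 52 were below the limit on at least 1 array.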
